A study of Mus musculus with 2 samples.

Results

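The genes described here are 10 mouse protease inhibitors and their relatives: the serpins Serpinb5, Serpinb1a, Serpinf1, Serpinb6a, Serpinb9 and Serpina3g, the metalloprotease inhibitor Timp1, the cathepsin propeptide relatives Ctla2a and Ctla2b, and the cystatin Cst7. They were followed in activated CD4+ T cells, and each was read by every probe set that the platform annotation assigns to that gene symbol alone. A probe set is a group of short array probes for 1 transcript. Of the 10 genes, 9 were measured, by 12 probe sets, among 11807 genes measured in all. Serpina3g had no such probe set and is not analysed here. The genes were chosen with their values on these arrays known, so their levels and differences are a description and not a test.

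The study compared 2 cultures with 1 array each. Naive CD4+ T cells of female C57BL/6J mice, from spleen and lymph nodes, received 60 h of stimulation by plate-bound antibodies against CD3 and CD28, in 1 culture without added cytokine (untreated) and in the other with recombinant mouse IL-27 at 25 ng/ml (IL-27-treated). Both cultures thus carried the same activating stimulus, and no unstimulated cells were analysed here. How many mice gave the cells of each culture is not given in the sources used here. The design names transcription factors induced by IL-27 as the object of the screen. With 1 array per group there is no replicate, so neither p-values nor standard errors were computed, and an effect of the cytokine cannot be told apart from variation between cultures. In RNA from a whole culture, fewer cells of a type and less RNA per cell cannot be told apart either.

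Protease inhibitors keep proteolysis in check inside and outside cells. An inhibitory serpin offers a mobile loop as bait, and the protease that cuts the loop is trapped in a covalent complex. Serpins of clade B act mainly inside cells, where they protect against proteases that leak from granules, and a few serpins, such as those encoded by Serpinb5 and Serpinf1, inhibit no protease. Cystatins and the Ctla2 proteins block cysteine cathepsins, and TIMPs block matrix metalloproteases. Ctla2a and Ctla2b were first found as transcripts of activated T cells.

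All levels are RMA intensities on a linear scale, and each difference is log2 of the IL-27 array minus log2 of the control array, named after their labels. A background floor was set at an intensity of 23.4 (4.55 on the log2 scale), the 95th percentile over 38 measured genes that belong to tissues such as liver, heart or brain. A gene counted as lower or higher when it exceeded the floor on at least 1 array and its intensities were at least 2-fold apart. Median intensities were 33.3 on the control array and 32.4 on the IL-27 array. Probe sets of 1 gene that exceeded the floor on both arrays differed from their gene's mean difference with an SD of 0.20 on the log2 scale, over 2128 genes. That spread is among probe sets read on the same 2 arrays and does not cover variation between cultures. In a check of 8 measured genes of the IL-27 response, the 6 that were 2-fold apart all went against the labels. Socs3, the feedback inhibitor that IL-27 is known to raise through STAT3, had intensities of 1122 on the control array and 186 on the IL-27 array. Il10, Il21 and Prdm1, also known to be raised by IL-27, were lower by 2-fold or more, while Gata3 and Il2, a pair held down by IL-27 in other work, were higher, Il2 at 338 and 1853. Tbx21 (-0.23) and Irf1 (0.34), both known to be raised, lay within 2-fold. Whether the labels of the 2 arrays were exchanged was not tested, and an exchange would turn every direction and place given here. All directions follow the labels as deposited. The 9 measured T cell markers all exceeded the floor on both arrays and lay within 2-fold.

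Of the 9 measured inhibitor genes, 7 were lower on the IL-27 array by 2-fold or more, 0 were higher by that much, and the other 2 lay within 2-fold. Over the 6948 genes above the floor, 2.73% were lower and 1.48% higher by that much. All 9 genes exceeded the floor on the control array, and 4 of them were below it on the other array, so for those the difference is only a bound. The median difference of the 9 genes was -3.71, or -2.97 when values under the floor are set to it, against 0.02 over all genes above the floor. Because the genes were chosen on this contrast, these counts support nothing beyond the values themselves. Counted by probe set, 9 of the 11 that exceeded the floor were at least 2-fold lower, against 2.57% of all such probe sets of single genes, and 0 were at least 2-fold higher, against 1.29%.

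**Figure D1:**
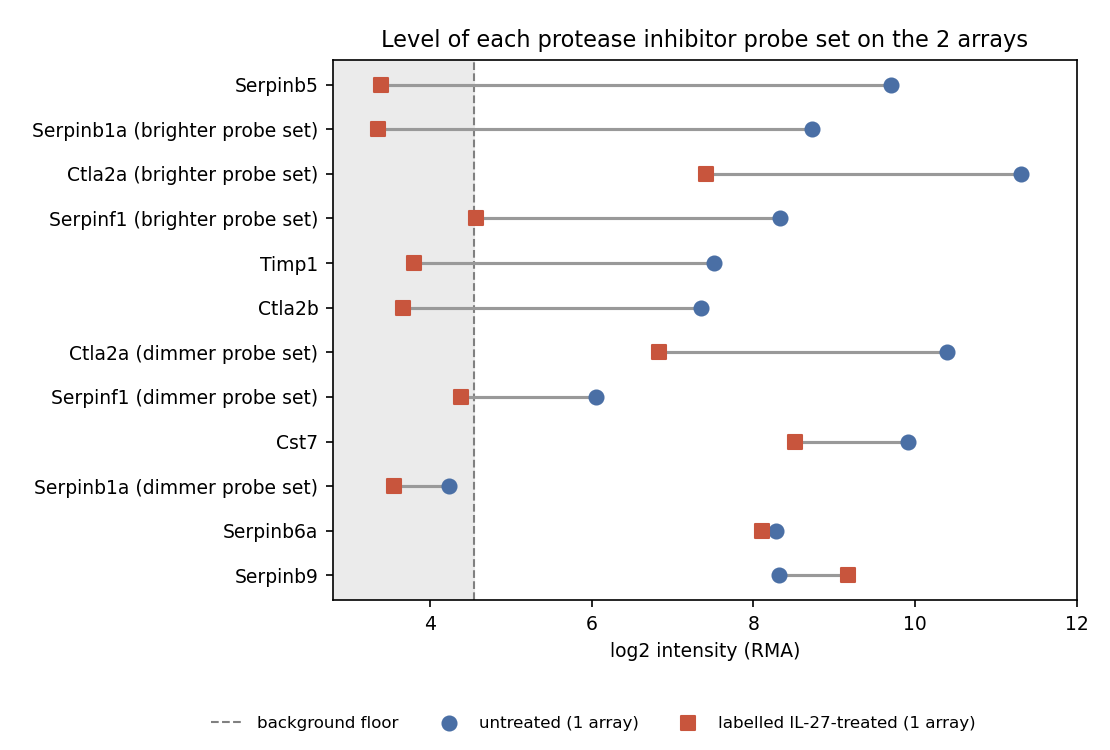
Log2 RMA intensity (x axis) of each of the 12 probe sets of the 9 measured inhibitor genes (y axis) on the control array (circles) and the IL-27 array (squares), 1 array each. The dashed line is the background floor at 4.55, and Serpinb5, Timp1, Ctla2b, the brighter probe set of Serpinb1a and the dimmer one of Serpinf1 cross it, while Serpinb9 alone lies higher on the IL-27 array.

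Serpinb5 encodes maspin, a clade B serpin known from epithelial cells that does not inhibit proteases. Its single probe set had an intensity of 829.9 on the control array and 10.5 on the IL-27 array. The first value was 35.5 times the floor and the second was below it, so the gene was at least 35.5-fold lower. No other of the 9 genes had a larger bound.

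The 250 bases before the start of Serpinb5 (RefSeq, GRCm38.p6, chr1:106860925-106861174, plus strand) are shown because they hold a match to the AP-1 motif TGANTCA, in capitals, the motif that Serpinb5 shares with both Ctla2 genes.
Serpinb5: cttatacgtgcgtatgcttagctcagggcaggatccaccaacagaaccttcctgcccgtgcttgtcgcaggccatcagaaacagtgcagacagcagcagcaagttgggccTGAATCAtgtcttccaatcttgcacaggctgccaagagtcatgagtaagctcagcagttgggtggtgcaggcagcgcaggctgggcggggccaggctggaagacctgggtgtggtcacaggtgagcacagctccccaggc
The match starts 140 bases before the start of the transcript. A match is a string of letters and not a shown binding site.

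Serpinb1a, whose product inhibits the neutrophil proteases elastase, proteinase 3 and cathepsin G, stood at 423.7 on the control array and 10.2 on the other by its brighter probe set. It was thus at least 18.1-fold lower. Its other probe set, of a type that can match related transcripts, had intensities of 18.9 and 11.7, below the floor on both arrays, and gives no fold. The call for Serpinb1a therefore rests on 1 of 2 probe sets.

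Serpinf1 encodes pigment epithelium-derived factor, a secreted serpin that restrains blood vessel growth and inhibits no protease. The brighter of its 2 probe sets read 323.0 on the control array and 23.8 on the IL-27 array, a 13.6-fold difference. The lower value was only 1.02 times the floor. The dimmer probe set read 66.6 and 20.8, which makes it at least 2.85-fold lower. Both probe sets were lower on the IL-27 array, with measured differences of -3.76 and -1.68 that lie further apart than the probe-set SD of 0.20, and the floor limits what the dimmer one can show.

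The other clade B serpins lay within 2-fold. Serpinb6a, which inhibits cathepsin G and other trypsin-like or chymotrypsin-like enzymes, had intensities of 310.3 and 276.1, a difference of -0.17. That is smaller than the probe-set SD. Serpinb9, the inhibitor with which lymphocytes protect themselves from granzyme B, had intensities of 319.1 on the control array and 577.5 on the IL-27 array. It was 1.81-fold higher, short of the 2-fold threshold, and stood at place 118 from the top among the 6639 genes above the floor on both arrays. Serpinb9 was the only one of the 9 genes with a positive difference.

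Serpinb6a lies within 2-fold, and its 250 bases before the start (GRCm38.p6, chr13:34002795-34003044, minus strand) are shown for contrast with those of the Ctla2 genes. They hold a match to TTCNNNGAA, a spacing that STAT factors can bind, in capitals.
Serpinb6a: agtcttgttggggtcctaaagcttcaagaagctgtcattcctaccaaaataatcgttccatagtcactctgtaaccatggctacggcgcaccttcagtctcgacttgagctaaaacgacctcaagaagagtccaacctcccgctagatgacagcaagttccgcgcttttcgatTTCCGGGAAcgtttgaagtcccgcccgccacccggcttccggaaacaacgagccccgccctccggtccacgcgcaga
The 300-base window that adds the first 50 transcribed bases holds 25 CpG pairs, against a median of 7 over all 32851 windows of the RefSeq table. A further TTCNNNGAA match lies in the transcribed bases, which are not shown. The second start listed for Serpinb6a has 5 CpG pairs and no match to either motif.

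Ctla2a and Ctla2b encode small proteins that resemble the propeptide of cysteine cathepsins, and Ctla2a is known to inhibit cathepsin L. The brighter probe set of Ctla2a had intensities of 2545 on the control array and 170.1 on the IL-27 array, a 15.0-fold difference. Its dimmer probe set read 1350 and 114.1, an 11.8-fold difference. Both probe sets stayed well above the floor on both arrays, at 7.28 and 4.88 times it on the dimmer array, so Ctla2a was measured on either side and its fold is not a bound. By measured difference, Ctla2a took place 2 from the bottom among the 6639 genes above the floor on both arrays. Ctla2b read 163.6 on the control array and 12.7 on the IL-27 array, which makes it at least 7.002-fold lower. Probe sets of these closely related genes can pick up both transcripts, so the split between the pair is uncertain.

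The bases before the start of each Ctla2 gene (RefSeq, GRCm38.p6, minus strand, chr13:60936626-60936875 for Ctla2a and chr13:60897448-60897697 for Ctla2b) are shown because the genes lie close together and were both lower. Capitals mark matches to TGANTCA, TTCNNNGAA and TATAAA.
Ctla2a: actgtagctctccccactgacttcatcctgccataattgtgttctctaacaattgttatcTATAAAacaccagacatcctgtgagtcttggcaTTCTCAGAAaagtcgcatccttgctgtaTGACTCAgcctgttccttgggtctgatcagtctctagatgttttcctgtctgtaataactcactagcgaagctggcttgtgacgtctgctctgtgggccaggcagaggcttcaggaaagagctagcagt
Ctla2b: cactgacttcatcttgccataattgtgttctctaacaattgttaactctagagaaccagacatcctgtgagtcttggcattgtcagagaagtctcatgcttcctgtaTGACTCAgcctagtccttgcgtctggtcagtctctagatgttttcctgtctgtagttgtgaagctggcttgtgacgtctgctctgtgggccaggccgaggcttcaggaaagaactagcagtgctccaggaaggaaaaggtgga
In a global alignment the windows had 76.8% identical columns, 209 of 272. For Ctla2b and the window of a second listed Ctla2a start the share was 64.7%. Pairs of windows not both from the Ctla2 genes had shares from 43.3% to 54.1%. The AP-1 match TGACTCA stands in both, starting 129 bases before the start of Ctla2a and 143 bases before that of Ctla2b. The match TTCTCAGAA, 157 bases before the start, and the TATAAA match stand in the Ctla2a window only, and the latter, 190 bases before the start, is far from where a TATA box usually lies. A second listed start of Ctla2a gives an overlapping window with the same matches.

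Timp1 encodes a secreted inhibitor of matrix metalloproteases and of ADAM10. Its single probe set had intensities of 182.9 on the control array and 13.99 on the IL-27 array. The second value was below the floor, so Timp1 was at least 7.83-fold lower.

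Cst7 encodes cystatin F, the cystatin of lymphocyte and myeloid granules, which inhibits cathepsin C among others. It had intensities of 964.4 and 365.5, a 2.64-fold difference. Both values were far above the floor, at 41.3 and 15.6 times it. Of the 7 genes called lower, Cst7 had the smallest difference by its representative probe set, and it took place 67 from the bottom among the genes above the floor on both arrays. The nearest gene inside the 2-fold threshold was Serpinb9, with 0.86 in the other direction.

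**Figure D2:**
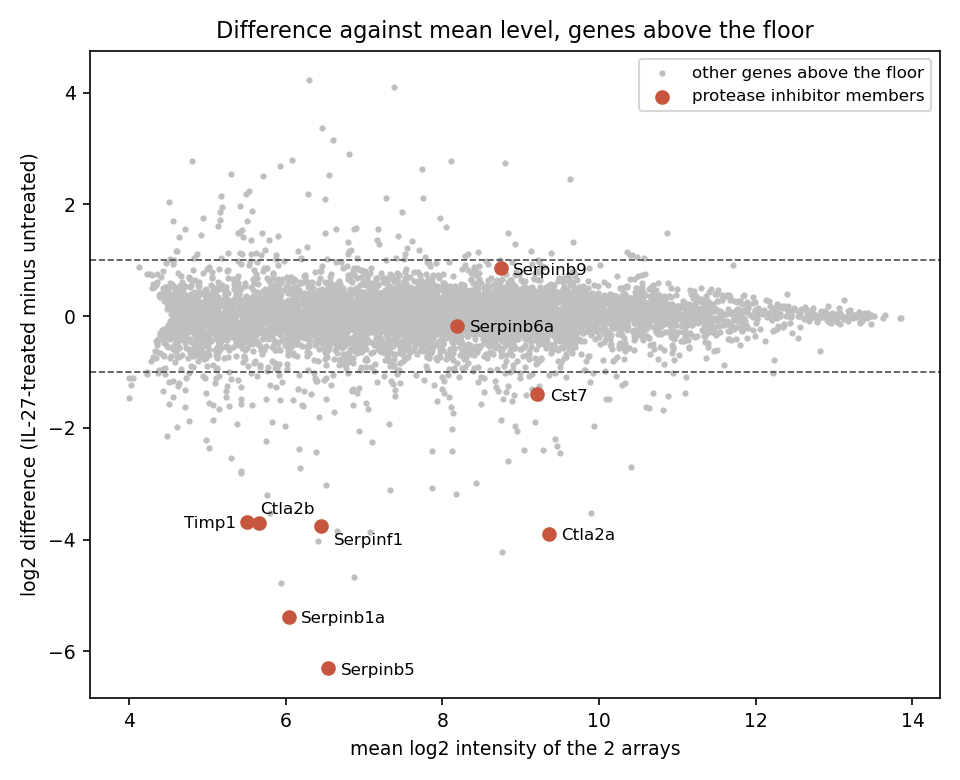
Log2 difference, IL-27-treated minus untreated (y axis), against mean log2 intensity of the 2 arrays (x axis) for 6948 genes above the floor, with the 9 inhibitor genes labelled and dashed lines at 2-fold. Serpinb5 and Serpinb1a lie lowest of the 9 at -6.31 and -5.38, both with a value below the floor on the IL-27 array.

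Promoter windows from 250 bases before to 50 after a transcript start were listed in the RefSeq table for 8 of the 9 measured genes, with none for Serpinb1a. The AP-1 motif TGANTCA was in a window of 4 of these 8 genes: Ctla2a, Ctla2b, Serpinb5 and Cst7, where it spans the start. All 4 were at least 2-fold lower, as were 6 of the 8 genes with a window, and the Ctla2 pair is not independent. The motif was in 7.81% of all 32851 windows. The shares given here count windows and not genes, and a gene with several windows has more room for a match. By window the AP-1 motif was in 5 of 11, and both overlapping windows of Ctla2a are among the 5. The 11 include the window of Serpina3g, which lacks the motif. The motif TTCNNNGAA was in a window of 2 of the 8, Ctla2a and Serpinb6a, and in 8.30% of all windows. The T-box motif AGGTGTGA was found for 0 of the 8 genes and in 1.28% of all windows, and TATAAA for 1 of the 8 and in 13.6%. TGANTCA and TTCNNNGAA read the same on both strands, the other motifs were searched on both, and no 2 matches in the printed windows overlap. The motifs were chosen with the genes' values known. The windows of Serpinf1, Timp1 and Serpinb9 held no match to any of the 4.

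For each inhibitor gene the 3 nearest measured genes on either side were read in chromosome order, which gave 43 genes that are not among the 9. Of these, 20 exceeded the floor, 13 of them with a negative difference and a median of -0.11. Of the 20, 0 were at least 2-fold lower or higher, beside shares of 2.73% and 1.48% over all genes. In the clade B cluster, Serpinb1a is followed by Serpinb6b and Serpinb9. Serpinb6b, a close relative of Serpinb6a, had intensities of 1224 and 1838, a difference of 0.59, so next to Serpinb1a lay a pair of serpin genes with differences of opposite sign to its own. Next to Serpinb5, Vps4b differed by -0.08 and Bcl2, the survival gene beyond it, by -0.97, while the serpin genes Serpinb3a, Serpinb11 and Serpinb7 on the other side were below the floor on both arrays. Ctla2b and Ctla2a are separated by Tpbpb among the measured genes, and Tpbpb and the cathepsin genes Ctsll3, Ctsj and Ctsq around them were below the floor on both arrays. Serpinf2, beside Serpinf1, was below it as well, and Rpa1, on its other side, differed by 0.06.

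**Figure D3:**
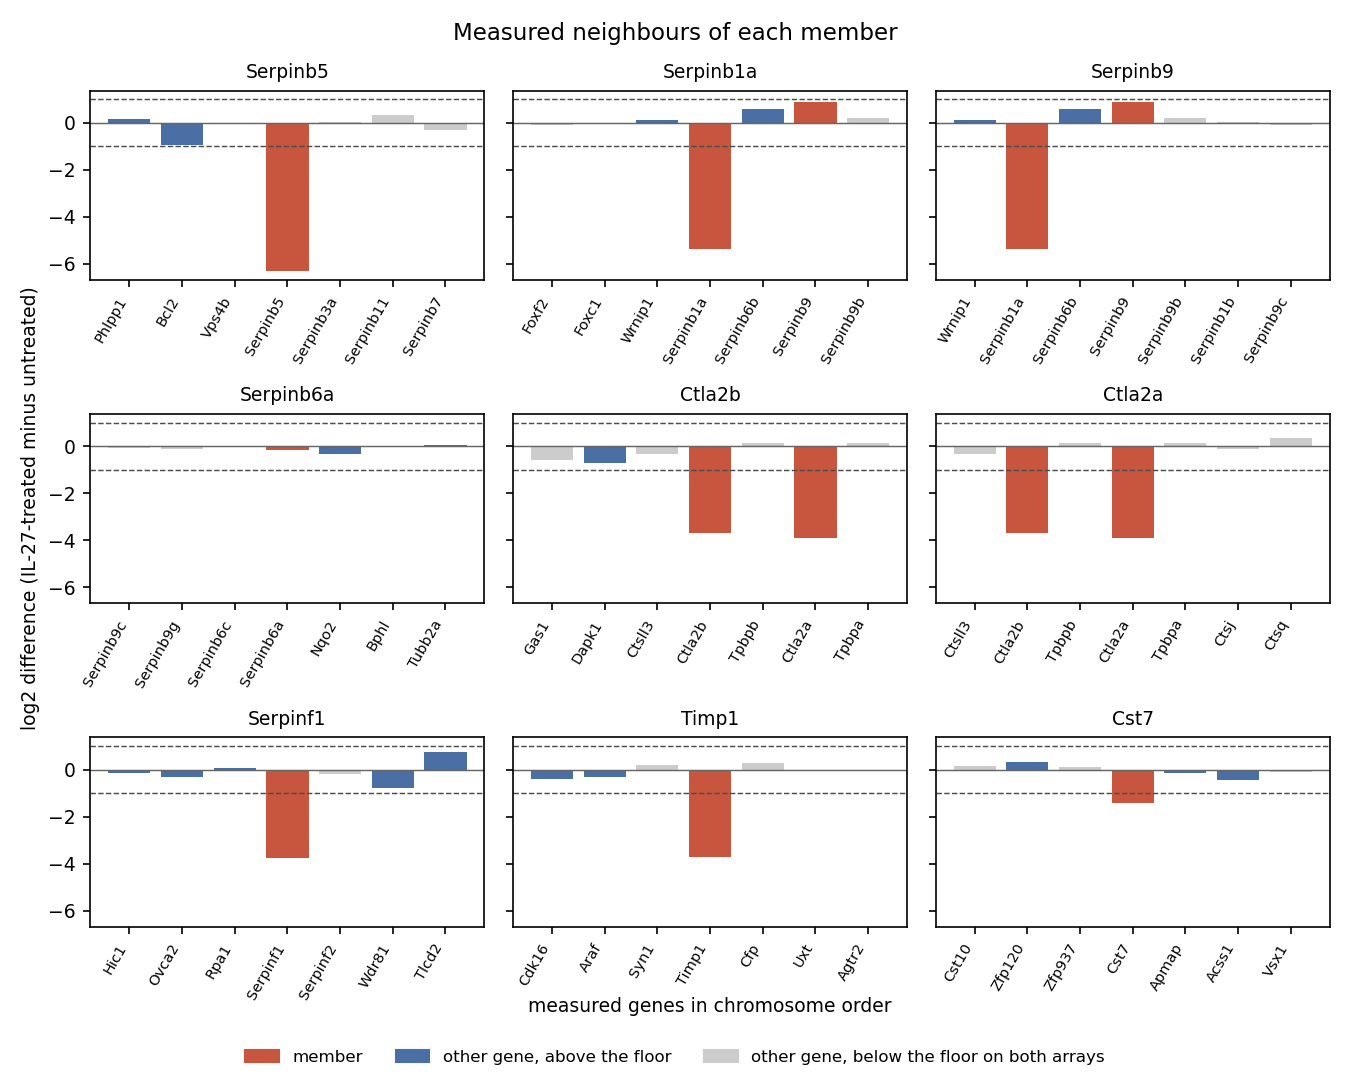
Log2 difference, IL-27-treated minus untreated (y axis), of each of the 9 inhibitor genes and of the 3 nearest measured genes on each side in chromosome order (x axis), 1 panel per gene, with dashed lines at 2-fold. Bars in the colour of the panel's gene are the 9 inhibitor genes, and 0 of the other 20 genes above the floor pass the dashed lines.

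The remaining inhibitor families were read from lists of 87 genes, of which 70 were measured and 16 exceeded the floor. Of these 16, 0 were at least 2-fold lower and 1 was at least 2-fold higher, with a median difference of 0.09. The higher gene was Serpinc1, which encodes the plasma inhibitor antithrombin of the liver. It had intensities of 18.8 and 68.7 and was at least 2.94-fold higher. Serpinc1 also belongs to the genes of other tissues that set the floor, which would be 22.8 without it. Of 28 serpins outside the 9 genes, 3 exceeded the floor, Serpinb6b, Serpinc1 and the neuroserpin gene Serpini1 (0.39), all with positive differences. The dimmer probe set of Serpini1 was below the floor on both arrays. Serpina3n and Serpinb9b, relatives of Serpina3g and Serpinb9, were below it on both arrays.

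The close relatives of Cst7 and Timp1 did not share their differences. The cystatin genes Cst3 and Cstb, which encode cystatin C and cystatin B, had intensities of 423.8 and 556.4 for Cst3 and 1610 and 1523 for Cstb. They differed by 0.39 and -0.08, and the dimmer probe set of Cstb by -0.35. Timp2 read 141.2 and 171.3, a difference of 0.28. Of the 9 genes above the floor in the list of other inhibitors, 5 had negative and 4 positive differences, with a median of -0.34. They ran from Slpi, a secreted inhibitor of leukocyte proteases, at -0.75 to Itih5, of the inter-alpha-trypsin inhibitor heavy chain family, at 0.80, and the membrane-anchored metalloprotease inhibitor Reck differed by -0.75. Slpi and Reck were below the floor on the IL-27 array.

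Proteases of the serine, cysteine and metallo classes that such inhibitors act on were measured for 69 of 75 listed genes, and 35 exceeded the floor. Of the 35, 4 were lower and 1 was higher by 2-fold or more, with a median difference of -0.23. Over all genes above the floor the shares were 2.73% and 1.48%. Ctsw, a cathepsin of cytotoxic lymphocytes, read 971.7 and 122.4, a 7.94-fold difference. Casp6, an executioner caspase, read 1693 and 308.7 and was 5.49-fold lower. The metalloprotease gene Adam9 was 2.14-fold lower. Gzma, which encodes granzyme A, was at least 1.47-fold lower, with a measured difference of -1.18. Its IL-27 value was below the floor, so its place among the 4 is not secured by the bound. The calpain gene Capn3 was at least 3.13-fold higher.

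Proteases known as partners were read for Serpinb9, Serpinb1a, Serpinb6a, Ctla2a, Cst7 and Timp1, and these lay within 2-fold or below the floor. Serpinb5 and Serpinf1 have no such partner. Gzmb, the target of Serpinb9, had intensities of 9004 on the control array and 5814 on the IL-27 array, a difference of -0.63, while Serpinb9 differed by 0.86. The neutrophil proteases that Serpinb1a and Serpinb6a inhibit were hardly seen: Prtn3 and Ctsg were below the floor on both arrays, and Elane reached an intensity of 24.2 at most, 1.04 times the floor. Of the cathepsins that Ctla2a and Cst7 act on, Ctsl read 363.5 and 286.3 (-0.34) and Ctsc 864.8 and 883.3 (0.03). Ctsh was below the floor on both arrays. Ctsb, another cysteine cathepsin, differed by -0.51, and by -0.64 by its other probe set above the floor. Adam10, which Timp1 inhibits, differed by 0.39 by its brightest probe set and by -0.25 by its next, and Mmp9 was below the floor on both arrays.

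**Figure D4:**
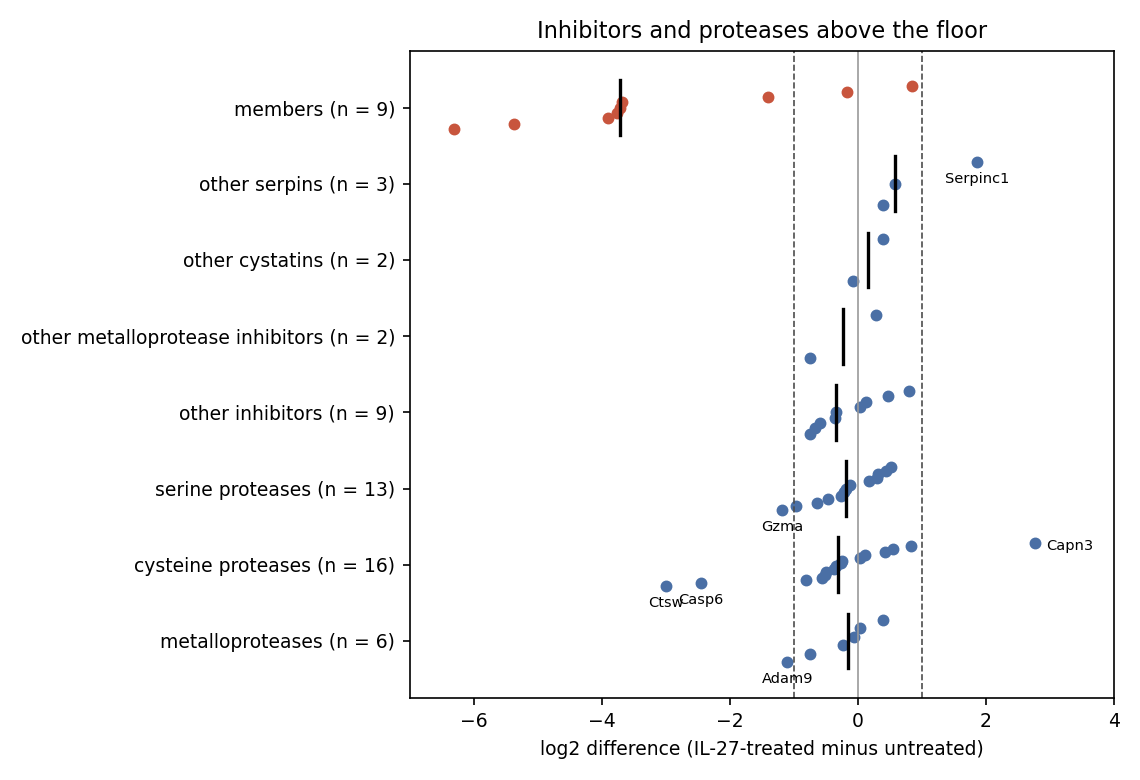
Log2 difference, IL-27-treated minus untreated (x axis), of each gene above the floor in the 9 inhibitor genes (members) and in 7 lists of other inhibitors and proteases (y axis), with black bars at the list medians and dashed lines at 2-fold. The 9 genes have a median of -3.71, the other lists medians between -0.34 and 0.59.

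Markers of other cell types were read because Cst7, Timp1, Serpinf1 and Serpinb1a are also expressed by cytotoxic, stromal or myeloid cells. In the list of NK and gamma-delta T cells, 3 of 7 measured genes exceeded the floor. Klrd1 and Klrk1, which encode receptors, were lower by bounds of 4.89-fold and 2.92-fold, whereas Eomes, which T cells also express, was 8.85-fold higher. The defining NK cell gene Ncr1 and Tyrobp were below the floor on both arrays. The summed intensity of the list was 262.7 on the control array and 367.7 on the IL-27 array. Without Eomes, the 1 gene above the floor that was higher, the sums were 229.9 and 77.3. Among the genes of these last sums only Klrd1 and Klrk1 exceeded the floor, so the lower sum reflects these receptors and not the whole list. In the macrophage and monocyte list, 2 of 11 exceeded the floor, Cd68 at -0.99 and Csf1r at -0.11, and the sums were 183.4 and 153.4. The list of dendritic cells had 3 of 7, with H2-Ab1 at -1.94, H2-Eb1 at 0.81 and Cd74 at 1.56, and sums of 490.2 and 419.5. For granulocytes and mast cells 1 of 10 exceeded it, with sums of 124.0 and 134.3, and for stromal and endothelial cells 1 of 6, with sums of 82.5 and 82.3. The B cell list had 1 of 8, with sums of 104.7 and 111.0, and the platelet and erythroid list 0 of 5. Cd8b1 read 119.3 and 176.5 and Cd8a was below the floor on both arrays. Klrd1, Klrk1 and H2-Ab1 were thus lower by 2-fold or more, while Eomes and Cd74 of the same NK and dendritic cell lists were higher. Cd68, Csf1r and H2-Eb1 lay within 2-fold. What part these marker differences have in the lower inhibitor genes was not tested.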

How the data were processed

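The table that the authors deposited holds linear intensities, 1 for every probe set on each array, made with RMA per the submitters' processing notes; its version is not given in the sources used here. Because RMA forces arrays handled together to a common distribution, it hides shifts in the RNA content of cells, and it shrinks differences near background. The 3' labelling started from 100 ng of total RNA, per the labels' protocols. There are no detection calls, and the number of arrays (1 per group) limits the precision.

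The platform annotation listed 1 gene symbol for 18003 of 22716 probe sets, several for 287 and none for 4426; only the first were used. The gene identifiers of 17977 matched a RefSeq table of GRCm38.p6, used for names and gene order, and 0 symbols changed. Values were converted to log2 with no pseudocount. A gene was read by its brightest probe set, judged by mean log2 level. Where 1 array was below the floor, a fold is the brighter intensity over the floor, a lower bound.

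The inhibitor genes, gene lists, floor, motifs and alternatives were chosen with earlier results of these data known. The genes named were every measured inhibitor of the set, list genes at least 2-fold apart, and fixed partners and relatives; Itih5, Slpi, Reck, Serpini1 and the chromosome neighbours were chosen after their values were seen. Alternatives covered normalization between arrays, the filter on dim features, the floor, a pseudocount of 16, the fold threshold and the probe sets used. Scripts were tested on simulated data with Python 3.11.15, pandas 2.3.3 and statsmodels 0.14.6.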

Additional observations from a re-analysis of the deposited data

How the results depend on the processing

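No paired analysis was possible because each group has 1 array. The 7 lower inhibitor genes were also 7 after subtracting each array's median, quantile normalization or loess. The count was the same with dim values raised to the floor, a pseudocount of 16 or the mean of probe sets. It was 7 as well without probe sets ending in _x_at or _s_at. It also stayed at 7 with no filter and with the floor set without Serpinc1, an alternative chosen after seeing the data. Those last settings could not have changed it, because all 9 measured genes already exceeded the floor and leaving out Serpinc1 lowers the floor. Among 55 differences of inhibitor probe sets recomputed with other normalizations, dim values raised or the pseudocount, 0 of those at least 2-fold changed sign. Raising dim values or adding a pseudocount cannot change a sign, so only the normalizations could have done so. Of the 55, 10 moved by more than the probe-set SD, all from raising dim values or the pseudocount. Both settings shrink differences of dim values by construction.

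Requiring both arrays above the floor leaves out the 4 genes that are only bounded: 3 inhibitor genes of 5, 4 of their probe sets, 0 higher other inhibitors and 0 higher proteases were then counted, beside 144 lower and 80 higher of 6639 genes in all. With the pseudocount 2 proteases were lower. At 1.5-fold, 1 inhibitor gene and 1 inhibitor probe set (Serpinb9) were higher, other inhibitors gave 4 lower and 3 higher, proteases 8 and 2, and all genes 503 and 356. At 3-fold, 6 inhibitor genes, without Cst7, and 2 proteases were lower, and all genes gave 70 lower and 35 higher. In the 250 bases before the start alone, TGANTCA was found for 3 of 8 measured genes, without Cst7. The floor limits the folds of Serpinb5, Serpinb1a, Timp1, Ctla2b and Serpinf1, whereas Ctla2a, Cst7, Serpinb6a and Serpinb9 were well above it on both arrays.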
